A study of Rattus norvegicus with 12 samples.

Results

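The mitochondrial respiratory chain genes described here are genes named for nuclear subunits of respiratory complexes I to V. They are the array's gene names that begin with Nduf followed by a, b, c, s or v and a digit (complex I), the 4 Sdh names (complex II), and the names that begin with Uqcr (complex III), Cox4 to Cox8 (complex IV) or Atp5 (complex V). A name was kept when a probe for it was well above background on at least 4 of 12 arrays, and the probe with the highest mean stood for the gene. Of 84 such names on the array, with 116 probes, 82 were kept among 22926 gene names in all. The other two, Cox7b2 and Cox8c, testis-type subunits of complex IV, were well above background on 0 arrays. The rule used no difference between groups. It goes by name alone, so the 82 include Cox6c-ps1, annotated as a pseudogene, and Atp5s, whose RefSeq symbol is now Dmac2l.

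Complexes I and II take electrons from NADH and succinate, complex III passes them through cytochrome c to complex IV, which reduces oxygen, and complex V uses the resulting proton gradient to make ATP. Each complex has a catalytic core and, apart from complex II, a set of small accessory subunits, and several subunits of complexes IV and V come in paralogous or tissue-specific forms. In bone, osteoblasts, osteoclasts and marrow cells all respire, while skeletal muscle carries its own forms of some complex IV subunits.

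Total RNA came from calvarial bone (the skull vault) of rats 10 weeks old, 6 h after surgery, with 4 arrays per group. In the laser group an Er:YAG laser, an infrared laser that ablates hard tissue, was drawn over the bone for 3 strokes (127 mJ a pulse, 20 Hz) and left a defect of 8 by 3 mm. In the bur group a rotating bur drilled a defect of the same size. Controls had the periosteum removed but no cut in the bone. The labels name no strain or sex and do not say whether each array came from a separate animal, so the p-values rest on a spread between arrays that may be technical.

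The array files bear on every comparison below. The 4 laser and 4 bur arrays lay on slides 1 and 2, with 2 of each per slide, while the 4 control arrays shared slide 3 and a scan day of their own. Treatment and slide therefore cannot be told apart in comparisons with control, whereas laser and bur can be compared within slides. The array's 75th percentile of processed signal ran between 204.3 and 383.2 intensity units on the treated arrays and between 197.2 and 227.2 on the control arrays. Spike-in control spots had a mean log2 signal of 7.63 on the treated arrays and 4.19 on the control arrays, and the part of this gap in the results was not tested. The labels call the tissue bone, and its markers were present: 10 of 10 osteoblast and 8 of 9 osteocyte markers were higher in laser than in control bone, and 8 of 10 and 9 of 9 in bur than in control bone. The remaining osteocyte marker was lower in laser bone. Markers of other cells moved with the groups as well. Of the erythroid markers, 10 of 13 fell with either treatment, and their mean log2 level per array, relative to the array's 75th percentile, was 0.07 to 3.53 in laser bone, 1.77 to 3.70 in bur bone and 4.55 to 5.27 in control bone. All 14 cell cycle genes and 5 of 6 granulocyte precursor markers also fell with both treatments, as did 6 of 7 adipocyte and 7 of 10 neural and glial markers. Their part in the results below was not tested. In whole tissue, fewer cells of a type and less RNA per cell cannot be told apart.

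Levels are given throughout as log2 signal relative to the array's 75th percentile, and differences between groups as log2 differences of means with their standard errors (SE). A gene is said to rise or fall where limma's Benjamini-Hochberg adjusted p over all 22926 genes was below 0.05. Levels of different genes are not compared, since probes differ in affinity.

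The respiratory chain genes did not move as one block. In laser against control bone, 27 of 82 rose and 8 fell, while 47 did not pass. Over all genes 32.2% rose and 17.6% fell, so the share that rose, 32.9%, was close to that of genes in general, and the share that fell was 9.76%. In bur against control bone, 31 rose and 9 fell, against 32.7% and 18.3% of all genes. The median difference of the 82 genes was 0.24 for laser and 0.30 for bur, where the medians over all genes were 0.21 and 0.23, and the members' median for laser turned to -0.03 under quantile normalization and -0.04 in the authors' deposited values, with 0.09 over all genes in both. Most members gave bright signals, with 68 in the brightest quintile of all genes. In that quintile 43.8% of genes rose and 12.4% fell in laser bone and 41.9% and 14.3% in bur bone, where 22 of the 68 members rose and 8 fell in laser bone and 26 rose and 9 fell in bur bone. The number that fell in laser bone depended on single arrays: it was 3 or 4 in place of 8 without laser replicate 1, 2 or 4 or control replicate 2, 3 or 4. Leaving out control replicates 2 and 4 together, the control arrays high in skeletal muscle markers, left 1 gene that fell in laser bone and 2 in bur bone. A fit with fewer arrays has less power for every gene, so these lower counts are not read as a trait of the members.

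The 2 comparisons with control share the same 4 control arrays. With that in mind, 25 genes passed as higher and 7 as lower in both. The same count over all genes is not given here. The plot of differences by complex shows where they lie.

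**Figure D1:**
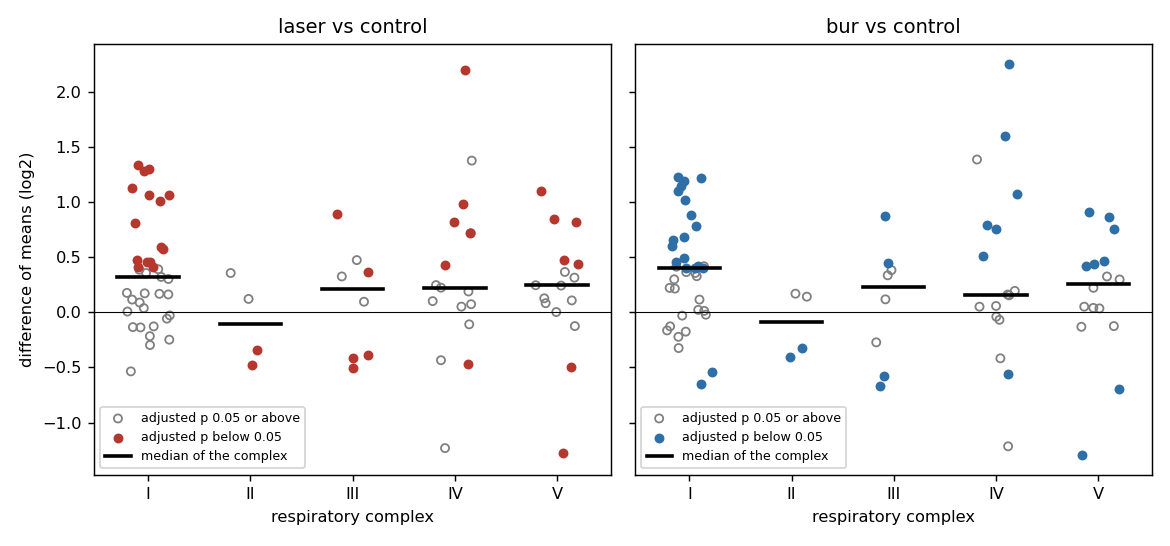
Difference of means from control (log2) for each of the 82 respiratory chain genes by complex, for laser on the left and bur on the right. Filled points passed at an adjusted p below 0.05, open points did not, and black bars are medians of a complex. Complex I holds 37 of the 82 genes and 15 of the 27 that rose in laser bone, while both complex II genes that passed lie below 0.

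Between laser and bur bone, 0 of 82 genes passed in either direction by limma, and 0 had an unadjusted p below 0.05. The smallest adjusted p was 0.811. The background was low too: 0.00436% of all genes were higher in laser than in bur bone, which is 1 gene (the heat shock gene Hspa1a, named after its value was seen), and 0% were lower. The authors' deposited table of this comparison also has 0 of 92 member probes at an adjusted p below 0.05.

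The 4 promoters below were picked by the smallest limma p for laser against control in each direction. Only genes that passed in both comparisons and had a matched promoter were considered. Atp5e and Ndufb2 rose, and Atp5b and Sdha fell, after both treatments. Each run covers 250 bases before and 50 after the RefSeq transcript start in the GRCr8 assembly. Capitals mark matches to one of the motifs searched on both strands: GCATGCGC for NRF-1, CCGGAAG for ETS factors such as GABP, AANATGGC for YY1 and TGACCTT for ERR, all of them factors known to act on genes of the respiratory chain. The Atp5e promoter is at chr3:183680123-183680422 on the minus strand and the Ndufb2 promoter at chr4:69334057-69334356 on the plus strand, and each holds 1 ERR match. The Atp5b promoter is at chr7:1099808-1100107 and the Sdha promoter at chr1:30764303-30764602, both on the plus strand, and each holds 1 YY1 match.
Atp5e: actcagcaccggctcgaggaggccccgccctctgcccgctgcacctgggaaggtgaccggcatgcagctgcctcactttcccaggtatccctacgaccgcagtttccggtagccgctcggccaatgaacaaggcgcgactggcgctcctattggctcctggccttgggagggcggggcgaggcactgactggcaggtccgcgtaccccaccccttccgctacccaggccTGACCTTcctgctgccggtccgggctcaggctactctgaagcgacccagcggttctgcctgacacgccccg
Ndufb2: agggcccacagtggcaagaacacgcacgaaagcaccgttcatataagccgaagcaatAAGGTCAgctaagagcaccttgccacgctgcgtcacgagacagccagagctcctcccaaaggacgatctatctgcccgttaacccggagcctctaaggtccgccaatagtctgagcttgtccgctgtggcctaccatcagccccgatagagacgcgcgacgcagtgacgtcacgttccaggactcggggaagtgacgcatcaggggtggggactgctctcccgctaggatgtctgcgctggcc
Atp5b: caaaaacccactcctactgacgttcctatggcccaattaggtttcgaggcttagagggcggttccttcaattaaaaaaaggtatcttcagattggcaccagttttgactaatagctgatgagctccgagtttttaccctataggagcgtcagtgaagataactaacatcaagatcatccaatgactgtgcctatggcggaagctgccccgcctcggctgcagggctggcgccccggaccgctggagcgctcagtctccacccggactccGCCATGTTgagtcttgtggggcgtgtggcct
Sdha: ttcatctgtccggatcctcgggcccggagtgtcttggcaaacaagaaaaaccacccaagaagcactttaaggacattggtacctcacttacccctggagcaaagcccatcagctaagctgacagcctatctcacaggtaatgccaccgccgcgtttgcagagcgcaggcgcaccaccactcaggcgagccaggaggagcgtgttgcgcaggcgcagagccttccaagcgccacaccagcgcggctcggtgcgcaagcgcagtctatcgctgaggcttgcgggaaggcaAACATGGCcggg

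Promoters could be matched for 70 of the 82 genes. A YY1 match lay in 27 of them (38.6%), against 6.96% of all 33469 promoters of the same length in the RefSeq table. An ETS match lay in 19 (27.1%, against 8.75%), an ERR match in 10 (14.3%, against 4.61%) and an NRF-1 match in 8 (11.4%, against 2.47%). These are properties of the gene set and owe nothing to the arrays. Split by the arrays, the YY1 letters occurred in 8 of the 23 matched promoters of genes that rose with both treatments and in 2 of the 7 of genes that fell with both. The ETS letters occurred in 7 of the 23 and 2 of the 7, the ERR letters in 6 of the 23 and 1 of the 7, and the NRF-1 letters in 2 of the 23 and 0 of the 7. A match to these letters is a description and does not show that a factor binds there.

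Complex I had the most genes. Of its 37 genes, 15 (40.5%) rose and 0 fell in laser bone by limma, where 2 were lower at an unadjusted p below 0.05, and 17 (45.9%) rose and 2 fell in bur bone. The shares that rose were near those of the brightest quintile of all genes, 43.8% and 41.9%, and above the 32.2% and 32.7% over all genes. Of all genes 17.6% fell in laser and 18.3% in bur bone, and of that quintile 12.4% and 14.3%. The absence of falling genes in laser bone depended on the scaling: 4 fell under quantile normalization, 5 in the authors' deposited values and 3 when the percentile was taken over probes above background on all arrays, with 9, 9 and 14 that rose. The median difference was 0.32 for laser and 0.40 for bur, and 0.07 and 0.19 under quantile normalization. Among the 7 core subunits, which carry the redox centres, 3 rose in each comparison (Ndufs8 and Ndufv1 among them) and 1 (Ndufs1) fell in bur bone. Of the 30 accessory and related genes, 12 and 14 rose.

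Ndufb2, an accessory subunit of the membrane arm, is represented by a probe at chr4:67106845-67106904 of the RGSCv3.4 (rn4) assembly used by the array's design. Its level was 5.261, 4.950, 5.231 and 4.810 on the laser arrays and 4.998, 5.311, 5.002 and 5.180 on the bur arrays, against 3.927, 4.117, 3.798 and 3.897 on the control arrays. Every treated array lay above every control array. The means were 5.06 ± 0.22 in laser bone, 5.12 ± 0.15 in bur bone and 3.93 ± 0.13 in control bone (SD, n = 4 each). Ndufb2 rose by 1.13 and 1.19 (SE 0.14, adjusted p = 0.000219 and 0.000214 for laser and bur). It passed under all 26 alternatives run for each comparison.

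The core subunits did not all move one way. Ndufv1, which binds NADH, averaged 4.51 ± 0.07 in laser bone, 4.59 ± 0.14 in bur bone and 4.10 ± 0.09 in control bone, and rose by 0.41 (adjusted p = 0.00952) and 0.49 (adjusted p = 0.00358). The laser value of Ndufv1 did not pass under quantile normalization (0.15, adjusted p = 0.206), in the authors' deposited values (0.07, adjusted p = 0.488) or without control replicates 2 and 4 (0.41, adjusted p = 0.0533). Ndufs1, the largest iron-sulfur subunit, moved the other way. It read 2.16, 2.16, 2.32 and 2.26 on the laser arrays and 1.80, 1.95, 2.07 and 2.10 on the bur arrays, against 2.41, 2.79, 2.38 and 2.51 on the control arrays. The treated arrays all lay below the control arrays, and Ndufs1 fell in bur bone (-0.54, SE 0.12, adjusted p = 0.00465), with -0.30 (adjusted p = 0.065) for laser. The laser value passed under quantile normalization (-0.47, adjusted p = 0.00537), with the percentile over probes above background on all arrays (-0.41, adjusted p = 0.0119) and in the authors' deposited values (-0.37, adjusted p = 0.0165). The difference between laser and bur, 0.25 (SE 0.12, adjusted p = 0.811), did not pass. Ndufs6, an accessory subunit, had -0.54 (adjusted p = 0.082) for laser and fell by 0.65 in bur bone (SE 0.24, adjusted p = 0.0415), a call lost without any of bur replicates 1, 2 or 3, laser replicate 2 or control replicates 2, 3 or 4.

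Accessory subunits that rose in both comparisons included Ndufa1, Ndufs5, Ndufa7 and Ndufc1, named after their values were seen, with differences from control between 1.01 and 1.30 for laser and between 0.88 and 1.22 for bur. Ndufa4l2 is classed here by its name. It is a hypoxia-induced paralogue of Ndufa4, and the Ndufa4 protein is now placed in complex IV. Ndufa4l2 averaged -1.66 ± 0.45 in laser bone, -1.80 ± 0.45 in bur bone and -2.94 ± 0.40 in control bone, and rose by 1.28 (SE 0.29, adjusted p = 0.00453) and 1.14 (adjusted p = 0.00817). The bur call of Ndufa4l2 was lost with normexp background correction (0.40, adjusted p = 0.082). Its laser call held under all 26 alternatives, with a lowest difference of 0.52. Ndufa4 rose by 0.57 and 0.68.

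**Figure D2:**
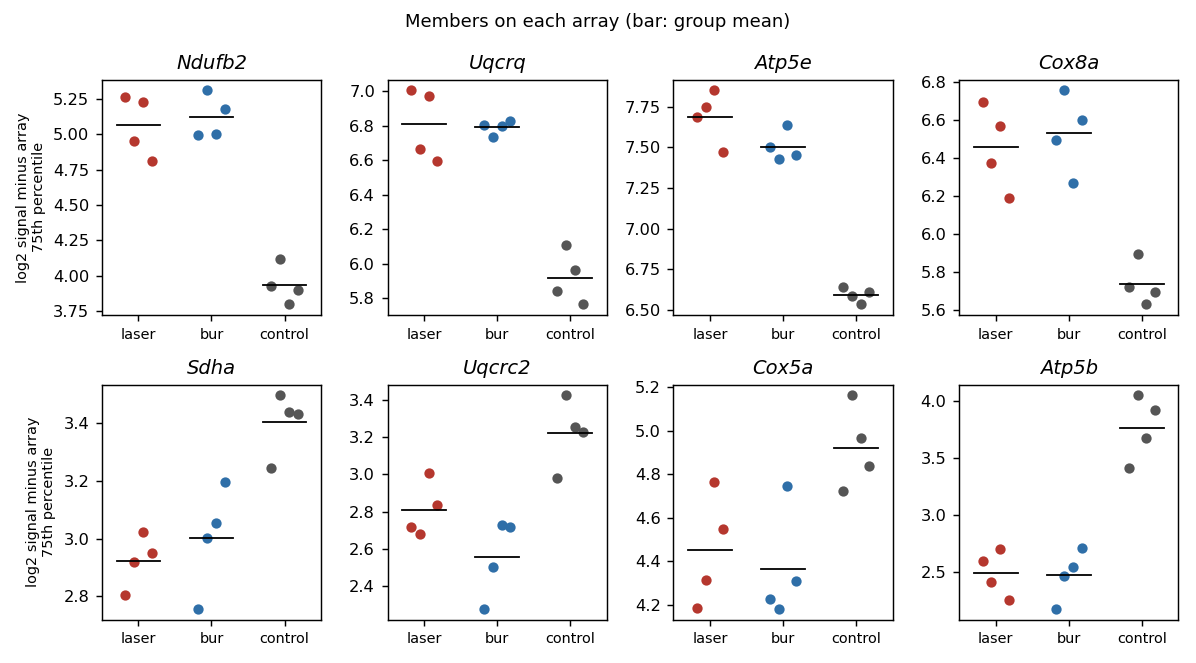
Level on each of the 12 arrays (log2 signal minus the array's 75th percentile) for 8 respiratory chain genes, with laser left of bur and control on the right. Each point is 1 array and bars are group means. The upper 4 genes lie higher on every treated array than on any control array, and the lower 4 have lower means after both treatments, with an overlap of single arrays for Cox5a and for Uqcrc2 in laser bone.

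In complex II, the succinate dehydrogenase that also belongs to the citric acid cycle, 2 of the 4 genes fell in both comparisons and 0 rose by limma. Over all genes 17.6% fell and 32.2% rose in laser bone, and 18.3% fell and 32.7% rose in bur bone. At an unadjusted p below 0.05, 1 (Sdhc) was higher in laser bone and 0 in bur bone. Sdha, the flavin-bearing catalytic subunit, has a probe at chr1:29763988-29764047 (rn4). It measured 2.80, 2.92, 3.02 and 2.95 on the laser arrays and 2.76, 3.00, 3.05 and 3.19 on the bur arrays, against 3.24, 3.50, 3.44 and 3.43 on the control arrays. The groups did not overlap, and Sdha fell by 0.48 (SE 0.12, adjusted p = 0.00743) in laser and by 0.40 (adjusted p = 0.0168) in bur bone. Sdhd, a membrane anchor, fell by 0.34 (adjusted p = 0.0255) and 0.33 (adjusted p = 0.0297). The call for Sdhd was lost without laser replicate 1 or 2 (laser), bur replicate 1 (bur) or any of control replicates 2, 3 and 4 (both). The iron-sulfur subunit Sdhb differed by 0.12 (adjusted p = 0.398) and 0.17 (adjusted p = 0.237), and the other anchor Sdhc by 0.36 (adjusted p = 0.0676) and 0.14 (adjusted p = 0.44), neither of which passed. Without control replicates 2 and 4 together, 0 of the 4 genes passed in either comparison.

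Complex III had genes that passed in either direction. Of 8 genes, 2 rose and 3 fell in laser bone, and 2 rose and 2 fell in bur bone. The shares that rose were 25% in each, against 32.2% and 32.7% of all genes. Those that fell were 37.5% and 25%, against 17.6% and 18.3%. The median difference, 0.21 for laser and 0.23 for bur, turned to -0.11 and -0.03 under quantile normalization and to -0.13 and -0.05 in the authors' deposited values. Uqcrfs1, the Rieske iron-sulfur protein, averaged 3.14 ± 0.18 in laser bone, 3.06 ± 0.15 in bur bone and 3.64 ± 0.18 in control bone, and fell by 0.50 (adjusted p = 0.0112) and 0.57 (adjusted p = 0.00571). A second, dimmer Uqcrfs1 probe had the opposite sign, 0.41 (adjusted p = 0.0306) for laser and 0.31 (adjusted p = 0.0782) for bur, so the direction of this gene depends on the probe. Uqcrc2, one of the core proteins on the matrix side, read 2.72, 2.68, 3.01 and 2.83 on the laser arrays and 2.28, 2.50, 2.73 and 2.72 on the bur arrays, against 2.98, 3.42, 3.25 and 3.23 on the control arrays. It fell by 0.41 (adjusted p = 0.0334) in laser bone, where the ranges overlapped, and by 0.67 (adjusted p = 0.00348) in bur bone, where they did not. Uqcrc1, the other core protein, fell by 0.39 in laser bone (adjusted p = 0.0393) and had -0.27 (adjusted p = 0.125) in bur bone. The laser calls of Uqcrc1 and Uqcrc2 were each lost without any 1 of 6 arrays, laser replicates 1, 2 and 4 and control replicates 2 and 3 among them.

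The small subunit Uqcrq was higher on every treated array than on any control array. It averaged 6.81 ± 0.21 in laser bone, 6.79 ± 0.04 in bur bone and 5.92 ± 0.15 in control bone. It rose by 0.89 (SE 0.13, adjusted p = 0.000416) and 0.87 (adjusted p = 0.000497). Uqcr10, another small subunit, was at the threshold: 0.37 for laser (adjusted p = 0.0491, with laser replicate 2 missing as an outlier spot) and 0.33 for bur (adjusted p = 0.0507). The laser call for this probe was lost when any of 10 of the 12 arrays was left out, all but laser replicate 4 and control replicate 2. A second, dimmer Uqcr10 probe, measured on all 12 arrays, passed as higher in both comparisons (0.50, adjusted p = 0.00705 for laser and 0.52, adjusted p = 0.00558 for bur). Uqcrb, which packs against cytochrome b, had 0.32 (adjusted p = 0.103) for laser and rose by 0.45 in bur bone (adjusted p = 0.0334), a call lost without bur replicate 2 or 4 or control replicate 1, 3 or 4. The bur call was lost under 14 of 26 alternatives, quantile normalization (0.23, adjusted p = 0.206) and the mean of the Uqcrb probes (0.21, adjusted p = 0.491) among them. A second, dimmer Uqcrb probe gave -0.03 in both comparisons (adjusted p = 0.948 and 0.951).

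In complex IV, cytochrome c oxidase, 5 of 17 genes rose and 1 fell in laser bone, and 6 rose and 1 fell in bur bone. The shares that rose, 29.4% and 35.3%, were near the 32.2% and 32.7% of all genes. The share that fell was 5.88% in each, against 17.6% and 18.3%. The median difference, 0.22 for laser and 0.16 for bur, turned to -0.08 and -0.07 under quantile normalization. Cox5a, a core-associated subunit present in every tissue, averaged 4.45 ± 0.25 in laser bone, 4.36 ± 0.26 in bur bone and 4.92 ± 0.19 in control bone. It fell by 0.47 (SE 0.17, adjusted p = 0.0416) and 0.56 (adjusted p = 0.0202). Single arrays of the groups overlapped, and the laser call of Cox5a was lost without any 1 of 7 arrays (laser replicates 1, 2 and 4, bur replicate 4, control replicates 2, 3 and 4), the bur call without bur replicate 2 or control replicate 2. A second Cox5a probe gave -0.05 (adjusted p = 0.735) for laser and -0.15 (adjusted p = 0.319) for bur, and neither call held for the mean of the Cox5a probes (-0.26, adjusted p = 0.148 and -0.36, adjusted p = 0.0577). Cox4i1, the common form of subunit 4, differed by -0.11 (adjusted p = 0.486) and -0.07 (adjusted p = 0.66). Under quantile normalization Cox4i1 passed as lower in both (-0.50, adjusted p = 0.00556 for laser and -0.37, adjusted p = 0.0237 for bur). In the authors' deposited values it passed as lower for laser (-0.40, adjusted p = 0.0104). Cox8a, the common form of subunit 8, averaged 6.45 ± 0.22 in laser bone, 6.53 ± 0.21 in bur bone and 5.73 ± 0.11 in control bone, and rose by 0.72 (adjusted p = 0.00246) and 0.80 (adjusted p = 0.00152). Its treated arrays all lay above the control arrays.

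The tissue forms of subunits 6a, 7a and 8 did not share a pattern. Cox7a1, named for the heart and muscle form of subunit 7a, averaged -1.02 ± 0.34 in laser bone and -1.08 ± 0.31 in bur bone. Its mean in control bone was -1.83 ± 0.10. Cox7a1 rose by 0.82 (adjusted p = 0.00567) and 0.75 (adjusted p = 0.00853). Both calls were lost with the treated arrays of slide 2 only (0.66, adjusted p = 0.0803 and 0.75, adjusted p = 0.0547). Its probe has no RefSeq symbol or genome position. It varied little on the control arrays, while the skeletal muscle marker means there ran from -2.17 to 4.06. Dimmer Cox7a1 probes, well above background on 8 and 5 arrays, gave 1.26 and 0.77 for laser and 1.47 and 1.03 for bur. Of these, the 0.77 did not pass (adjusted p = 0.0965). Cox7a2, the liver form, rose by 0.43 (adjusted p = 0.0185) and 0.51 (adjusted p = 0.00867), the laser call being lost without laser replicate 3. That call was also lost under quantile normalization (0.13, adjusted p = 0.311) and in the authors' deposited values (0.12, adjusted p = 0.372). With slide as a block (0.43, adjusted p = 0.0545) and with the treated arrays of slide 2 only (0.41, adjusted p = 0.1) it was lost too. Cox6a1, the liver form of subunit 6a, had 0.19 (adjusted p = 0.201) and 0.16 (adjusted p = 0.269).

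The muscle forms Cox6a2 and Cox8b were set apart by 2 control arrays. Cox6a2 (probe at chr1:187464573-187464632, rn4) read 1.65, 0.89, 1.75 and 2.02 on the laser arrays and 2.04, 1.54, 1.38 and 1.41 on the bur arrays, against 0.25, 4.46, -0.15 and 3.49 on control replicates 1 to 4. Cox8b (probe at chr1:201057325-201057384, rn4) read -0.52, -0.75, -0.38 and -0.20 on the laser arrays and -0.05, -0.48, -0.65 and -0.60 on the bur arrays, against -1.51, 3.65, -1.89 and 2.82 on the control arrays. Control replicates 2 and 4 were thus far above, and control replicates 1 and 3 below, all 8 treated arrays.

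The same 2 control arrays were high in skeletal muscle markers. The mean log2 level of the 13 markers was -1.41 to 0.10 on the laser arrays and -2.61 to 0.00478 on the bur arrays, and on control replicates 1 to 4 it was -1.17, 4.06, -2.17 and 2.72. With all 12 arrays neither Cox6a2 (-0.44, adjusted p = 0.696 for laser and -0.42, adjusted p = 0.701 for bur) nor Cox8b (-1.23 and -1.22, both with an adjusted p of 0.352) passed. Without control replicates 2 and 4, an alternative added after the data were seen, the differences were 1.53 and 1.54 for Cox6a2 and 1.24 and 1.26 for Cox8b, with 2 control arrays left. The arrays left out are those with the highest values of both genes, so this direction was fixed by leaving them out and is given as a description, with no test. The part of muscle RNA in other members was not tested.

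**Figure D3:**
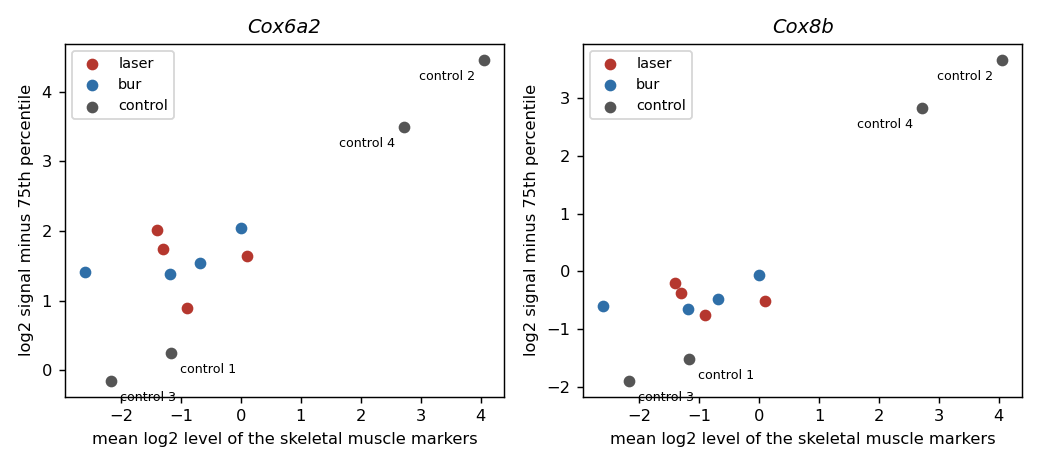
Level of Cox6a2 (left) and Cox8b (right) on each array against the mean log2 level of 13 skeletal muscle markers on that array, both relative to the array's 75th percentile. Control replicates 2 and 4, with marker means of 4.06 and 2.72, lie far to the upper right of all other arrays.

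Among the members, 3 differed between slides 1 and 2 of the treated arrays in a limma fit with treatment and slide as terms, against 5.61% of all genes, and 7 had an unadjusted p below 0.05. All 3 are classed in complex IV by name, and Cox7c and Cox6c-ps1 are named because of this difference. Cox7c, a small ubiquitous subunit, read 2.78 and 2.53 on the laser arrays of slide 1 and 0.72 and 0.06 on those of slide 2, and likewise 2.41 and 2.70 on the bur arrays of slide 1 and 0.59 and 0.61 on those of slide 2. The control arrays, on slide 3, read -0.77, -0.35, -0.84 and -0.75. The difference of slide 2 from slide 1 was -2.11 (SE 0.18, adjusted p = 0.00122).

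Cox7c passed as higher than control in both comparisons (2.20, SE 0.66, adjusted p = 0.0175 for laser and 2.25, adjusted p = 0.0154 for bur). That call was lost for laser without laser replicate 1 or 2, and a second Cox7c probe gave -0.12 (adjusted p = 0.514) for laser and -0.35 (adjusted p = 0.0622) for bur. Cox6c-ps1, annotated as a pseudogene of Cox6c, had a difference of -1.76 (adjusted p = 0.00623), and its probe may also bind Cox6c transcripts. Against control it had 1.37 and 1.38 (adjusted p = 0.0619 and 0.0591). Cox4i2, the hypoxia-responsive form of subunit 4, was lower on slide 2 than on slide 1, with a difference of -0.93 (adjusted p = 0.0315).

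For Cox4i2 the differences from control were 0.98 for laser (SE 0.32, adjusted p = 0.0261, lost without laser replicate 1 or 2 or control replicate 2 or 3) and 1.08 for bur (adjusted p = 0.0173). Cox6b2, the testis form of subunit 6b, was missing on laser replicates 1 and 2 as outlier spots and read 3.07 and 2.80 on the other two laser arrays. It read 5.57, 3.69, 2.99 and 3.02 on the bur arrays and 2.38, 2.22, 2.12 and 2.14 on the control arrays. Cox6b2 had 0.72 (adjusted p = 0.354) for laser, which passed under 5 of 24 alternatives. Among them were the fit without bur replicate 1 (adjusted p = 0.0272), the authors' deposited values (2.26, adjusted p = 0.0456) and normexp background correction (2.77, adjusted p = 0.0303). In bur bone Cox6b2 rose by 1.60 (adjusted p = 0.0264), a call lost under 7 of 25 alternatives. It was lost without control replicate 2, 3 or 4 and with slide as a block (adjusted p = 0.0564). The authors' deposited values (1.34, adjusted p = 0.209) and normexp (1.54, adjusted p = 0.199) lost it too.

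**Figure D4:**
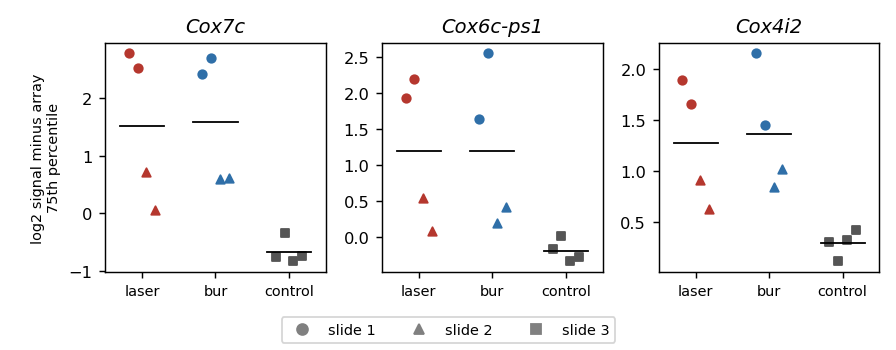
Level of Cox7c, Cox6c-ps1 and Cox4i2 on each array (log2 signal minus the array's 75th percentile), with laser left of bur and control on the right. Circles are arrays of slide 1, triangles of slide 2 and squares of slide 3, and bars are group means. In both treated groups the 2 arrays of slide 1 lie above the 2 of slide 2, and the control arrays lie lowest.

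Complex V, the ATP synthase, held the member that fell most. Of its 16 genes, 5 rose and 2 fell in laser bone, and 6 rose and 2 fell in bur bone. The shares that rose, 31.25% and 37.5%, were near the 32.2% and 32.7% of all genes. The share that fell was 12.5% in each, against 17.6% and 18.3%. The median difference, 0.24 for laser and 0.26 for bur, was -0.03 and 0.04 under quantile normalization and -0.09 and -0.01 in the authors' deposited values. Atp5b (now Atp5f1b), the catalytic beta subunit, has a probe at chr7:1378451-1378510 (rn4). Its level was 2.60, 2.41, 2.70 and 2.25 on the laser arrays and 2.17, 2.46, 2.54 and 2.71 on the bur arrays, against 3.42, 4.05, 3.68 and 3.92 on the control arrays. No treated array reached the lowest control array. Atp5b fell by 1.28 (SE 0.17, adjusted p = 0.000328) in laser bone, or 2.43-fold, and 2.46-fold (adjusted p = 0.000356) in bur bone, and it passed under all 26 alternatives in each comparison.

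The other parts of the catalytic head did not all do the same. Atp5a1 (now Atp5f1a), the alpha subunit that alternates with beta in the head, differed by 0.13 (adjusted p = 0.435) and 0.03 (adjusted p = 0.832). Atp5c1 (now Atp5f1c), the rotating gamma subunit, averaged 2.87 ± 0.17 in laser bone, 2.66 ± 0.25 in bur bone and 3.36 ± 0.24 in control bone. It fell by 0.49 (adjusted p = 0.0292, lost without laser replicate 1, 2 or 4 or control replicate 2 or 4) and 0.70 (adjusted p = 0.00578). Atp5e (now Atp5f1e), the small epsilon subunit of the central stalk, rose: it read 7.69, 7.75, 7.85 and 7.47 on the laser arrays and 7.50, 7.43, 7.63 and 7.45 on the bur arrays, against 6.64, 6.58, 6.54 and 6.61 on the control arrays. The groups lay far apart, and the differences were 1.09 (SE 0.11, adjusted p = 0.000108), or 2.14-fold, and 0.91 (adjusted p = 0.000239).

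Subunit c, which forms the rotor ring, is encoded by 3 genes that give the same mature protein. Atp5g1 differed by -0.13 in both comparisons (adjusted p = 0.426 and 0.396) and Atp5g3 by 0.24 (adjusted p = 0.198) and 0.05 (adjusted p = 0.788). Atp5g1 passed as lower under quantile normalization (-0.43, adjusted p = 0.00793 and -0.36, adjusted p = 0.017). It also did in the authors' deposited values (-0.40, adjusted p = 0.00781 and -0.28, adjusted p = 0.0399). A second, dimmer Atp5g3 probe passed as higher for laser (0.64, adjusted p = 0.0322) and had 0.46 (adjusted p = 0.0963) for bur. Atp5g2 rose by 0.84 (adjusted p = 0.000348) and 0.87 (adjusted p = 0.000356) on the brightest of its 4 probes. The other 3 Atp5g2 probes had -0.14, 0.03 and 0.18 for laser (adjusted p = 0.325, 0.822 and 0.194), so 1 of the 4 probes showed the rise. Of the 26 members with several probes kept, 12 had probes with unlike calls for laser and 13 for bur, and 1 (Uqcrfs1) had probes that passed in both directions for laser.

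Laser and bur were close to each other in every complex. The difference between them ranged from -0.88 (Cox6b2) to 0.25 (Uqcrc2) over the 82 genes, with a median of 0.01. The Cox6b2 value compares unlike slides, since its laser mean lacks replicates 1 and 2 and rests on slide 2 alone. Cox6b2 read 2.80 to 3.07 on the treated arrays of slide 2 and 3.69 to 5.57 on those of slide 1. In the authors' deposited comparison its difference had the opposite sign, 0.92. Its 95% interval lay within 0.5 on either side of 0 for 62 genes and within 1 for 77, and the median distance from a difference to either end of its interval was 0.33. The 4 arrays per group set this precision. For Atp5b the interval ran from -0.36 to 0.40. Among the widest intervals were those of Cox6a2 and Cox8b, with 2 control arrays far from the other two, and of Cox7c and Cox6c-ps1, which differed between the slides of the treated arrays.

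**Figure D5:**
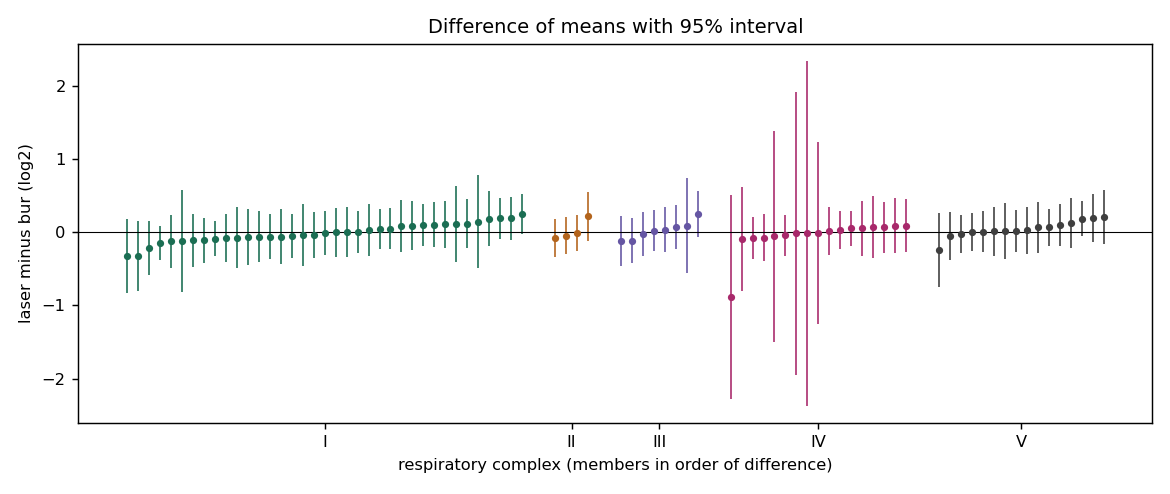
Difference of means between laser and bur bone (laser minus bur, log2) for each of the 82 genes, grouped by complex and ordered by size within it. Bars are 95% intervals from the limma fit. For 62 genes the whole interval lies between -0.5 and 0.5, and the widest intervals are in complex IV.

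The subunits encoded in the mitochondrial genome, which join the nuclear ones in complexes I, III, IV and V, were looked up after the other lists had been fixed. Counts in this and the lists after it stand beside the 32.2% of all genes that rose and 17.6% that fell in laser bone, and 32.7% and 18.3% in bur bone, and none is called particular to its list. Of the 13, 6 rose and 1 fell in laser bone, and 4 rose and 1 fell in bur bone. ND3, a complex I subunit, rose by 1.25 (adjusted p = 0.000115) and 1.40 (adjusted p = 0.000131), and ND1 by 0.63 (adjusted p = 0.00422) and 0.56 (adjusted p = 0.00761). ND2 fell by 0.85 (adjusted p = 0.000981) and 0.88 (adjusted p = 0.000859). These genes are transcribed together as long precursors.

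Genes that build the complexes moved in either direction. Of 14 complex I assembly factors, 4 rose and 2 fell in laser bone and 4 rose and 3 fell in bur bone: Nubpl, which delivers iron-sulfur clusters, rose by 0.81 and 0.73, Ecsit rose by 0.48 and 0.59, and Foxred1 fell by 0.49 and 0.57. Of 6 complex III assembly factors, 4 rose and 1 fell in each, Ttc19 by 0.69 and 0.68 and Uqcc2 by 0.66 and 0.58 among those that rose, while Bcs1l, which inserts the Rieske protein, had -0.15 (adjusted p = 0.451) for laser and fell by 0.70 in bur bone (adjusted p = 0.00511). Of 17 complex IV assembly factors measured, 5 rose in each and 2 fell for laser and 1 for bur. Coa3 rose by 0.74 and 0.83 and Cox16 by 0.90 and 0.78, and Cox11, a copper chaperone, fell by 0.79 and 0.61. Tmem70, which helps assemble the ATP synthase, fell by 0.71 (adjusted p = 0.00123) and 1.04 (adjusted p = 0.000242), while the chaperones of its head, Atpaf1 and Atpaf2, rose by 0.46 and 0.35 and by 0.52 and 0.42. Of the 4 complex II assembly factors, Sdhaf3 rose by 0.79 and 0.85, and Sdhaf1 had -0.17 (adjusted p = 0.248) for laser and fell by 0.48 in bur bone. Cyc1, the cytochrome c1 of complex III, rose by 0.52 and 0.47, and Ndufab1, the acyl carrier protein of complex I that the name rule leaves out, did not pass.

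The pathways that feed the chain and export its product were measured in the same fit. Of 17 genes of the citric acid cycle and pyruvate dehydrogenase, 2 rose in both comparisons, and 6 fell in laser and 7 in bur bone. Idh3a, a subunit of isocitrate dehydrogenase, fell by 0.99 and 0.97, whereas Ogdh, of the oxoglutarate dehydrogenase complex, rose by 2.13 (adjusted p = 0.000555) and 1.90 (adjusted p = 0.00104) and Pdha1, of pyruvate dehydrogenase, by 0.91 and 0.82. Among 8 carriers, porins and uncoupling proteins, the phosphate carrier Slc25a3 rose by 1.06 and 0.90 and the porin Vdac1 by 0.44 and 0.50. Ucp2, an uncoupling protein abundant in blood-forming and immune cells, fell by 3.22 (SE 0.41, adjusted p = 0.000254) and 3.39 (adjusted p = 0.000253). The erythroid and granulocyte precursor markers fell on the same arrays, and their part in the Ucp2 result was not tested.

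Of 74 mitochondrial ribosomal proteins, 29 rose and 6 fell in laser bone, and 24 rose and 11 fell in bur bone. Their median difference was 0.24 for laser and 0.13 for bur, against 0.21 and 0.23 over all genes, and the share that rose in bur bone was near that of all genes. Mrps7 rose by 1.23 and 0.93, Mrps34 by 0.97 and 0.75 and Mrpl20 by 0.85 and 0.76. Of 20 protein import genes, 6 rose and 4 fell for laser and 2 rose and 4 fell for bur: the pore protein Tomm40 fell by 0.88 and 1.20, Timm50 by 0.75 and 0.60, and Timm8a1 rose by 0.67 (adjusted p = 0.00211) for laser and had 0.32 (adjusted p = 0.0566) for bur. Of 18 regulators of mitochondrial biogenesis, 4 rose and 3 fell for laser, and 3 fell for bur. Gabpb1, a subunit of the ETS factor GABP, fell by 0.93 and 1.37, the mitochondrial DNA polymerase Polg by 0.99 and 1.24, and the coactivator Ppargc1b by 0.70 and 0.56. Of 6 hypoxia-linked switches, Pdk1, which restrains pyruvate dehydrogenase, rose by 1.13 (adjusted p = 0.000137) and 0.68 (adjusted p = 0.0014), and the mitophagy receptor Bnip3l fell by 0.89 and 0.88. In each of these lists the pairs of values are for laser and then bur against the shared control arrays.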

How the data were processed

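Rat calvarial RNA (200 ng input, Cy3) was measured on 12 one-colour arrays, grouped by title with 4 each. The array files hold spot intensity values, background-subtracted by version 11.0.1.1 of Agilent Feature Extraction, per the file headers. Deposited beside them are the authors' log2 values, quantile-normalized, and comparison tables with a log2 fold change and p-value per probe. The sources used here do not give the model behind them. No spot was saturated, and the number of arrays limits the precision.

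Control and outlier-marked spots were dropped, the log2 processed signal was averaged per probe, and the array's 75th percentile was subtracted. Of 45598 probes, 30121 were well above background on at least 4 arrays. RefSeq accessions named 21184 probes. All 12 arrays entered one linear model with a mean per group (limma 3.58.1, R 4.3.3, two-sided), adjusted by Benjamini-Hochberg over 22926 genes at a threshold of 0.05, after a test on simulated data. Alternatives changed the background correction (normexp on raw signals, offset 50, outlier spots kept), scaling, filter, probe choice, blocks and arrays used.

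The members, lists and tests were chosen with earlier results of these data known. Genes were named by a rule: core subunits, isoforms, up to 2 genes of smallest adjusted p per complex, comparison and direction, and up to 3 per related list. Other names were chosen after their values were seen. A result that the rule picked is not reported here.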

Additional observations from a re-analysis of the deposited data

Results flagged for a closer look

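Of 103 groups of 4 arrays examined for 35 respiratory chain genes, 3 had 1 array that stood far from the other three by the ratio of its gap to the group's range, and chance gives about 1 in 20. Sdhb measured 2.94 on control replicate 1, below the 3.10 to 3.13 of the other control arrays. Cox6a1 measured 7.57 on laser replicate 3, above the 7.23 to 7.28 of the other laser arrays. Atp5a1 measured 7.37 on the same array, above 7.16 to 7.17. None of these genes passed in either comparison with control. No respiratory chain gene among the 35 differed between laser and bur bone at an adjusted p below 0.05.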

How the results depend on the processing

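Differences between laser and bur bone stayed at 0 genes in either direction under every alternative. Against control, the number that rose in laser bone, 27, was 17 with quantile normalization and 16 with the authors' deposited values, where the number that fell, 8, was 16 and 15. For bur, the 31 that rose were 20 with the authors' deposited values, and the 9 that fell were 16 with quantile normalization and 18 with those values. With normexp 5 fell in each comparison. In laser bone the number that fell was also 4 with no filter on dim probes, 3 with slide as a block, 2 with the treated arrays of slide 2 only and 1 without both control replicates 2 and 4, and in bur bone it was 2 with slide 2 only and 2 without those controls. Leaving out each array in turn gave 21 to 32 that rose and 3 to 9 that fell for laser, and 24 to 34 and 6 to 10 for bur. Fits with fewer arrays have less power for every gene, and shares over all genes are not set beside these counts. Scaling shifted genes in general as well, as given below, so the counts are not read as a trait of the members.

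Scaling moved all genes: the median over all genes for laser was 0.21 with the 75th percentile, 0.09 with quantile normalization and 0.02 with normexp, and the members' medians were 0.24, -0.03 and 0.23. Of all calls for laser 64.7% were higher. This share was 56.3% with quantile normalization, 57.6% with the authors' deposited values and 54.3% with normexp. For bur it was 64.2%, and 54.7% with quantile normalization, 54.0% with the authors' deposited values and 51.2% with normexp. Under quantile normalization, the percentile over probes above background on all arrays and normexp together, 16 of the 27 and 5 of the 8 kept their call for laser, and 19 of the 31 and 5 of the 9 for bur. Single genes that turned were Uqcr10 (-0.016), Cox6a1 (-0.28) and Atp5a1 (-0.32) for laser under quantile normalization, Atp5g2 (-0.14 and -0.11 for laser and bur) in the authors' deposited values, whose comparison tables hold another Atp5g2 probe, and without both control replicates 2 and 4 Cox6a2 (1.53 and 1.54) and Cox8b (1.24 and 1.26). The cause was not tested.

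Replicate numbers are shared by the groups, but same-numbered arrays did not all deviate together (correlations of 0.085 to 0.39 for laser with control, 0.095 to 0.26 for bur with control and 0.046 to 0.58 for laser with bur). A fit with the replicate number as a block gave 28 and 9 for laser, 32 and 9 for bur, and 0 between them.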
